A study of Mus musculus with 2 samples.

Results

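The genes described are those of the proteasome and the immunoproteasome, taken as every gene symbol that begins with Psma, Psmb, Psmc, Psmd or Psme followed by a digit, leaving out names marked as pseudogenes. The rule found 45 members among 31253 measured genes. They comprise 5 interferon-inducible members (Psmb8, Psmb9, Psmb10, Psme1 and Psme2), 14 constitutive subunits of the 20S core (alpha ring genes numbered from Psma1 to Psma7 and beta ring genes from Psmb1 to Psmb7), 17 subunits of the 19S regulatory particle, 3 assembly chaperones of that particle, 2 other activators, and 4 symbols of other kinds. Among the last, Psma8 and Psmb11 are known from testis and thymus, Psme2b is a near-copy of Psme2 that may share reads with it, and Psmc3ip matches by name without being a subunit.

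Live CD45+ cells had been sorted from B16 tumors, a transplanted mouse melanoma, and profiled by droplet-based single-cell RNA sequencing. All hosts were wild-type mice immunized with irradiated B16-GM-CSF cells, a vaccine line, on the left flank and challenged 12 days later on the right flank with B16 cells carrying a hairpin against Sdc1 (shSdc1), which encodes the proteoglycan syndecan-1, or the control hairpin shRFP. Tumors were taken 16 days after that, and 6 tumors were pooled in each group, so that each group is 1 library; the sources used here give no mouse age. A label calls the shSdc1 sample a knockout, whereas the title and protocol speak of a hairpin carried by the tumor cells. With 1 library per group there is no replicate, no test is possible, and every interval below is a 95% interval that covers counting error only.

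The proteasome degrades proteins tagged with ubiquitin. Its 20S core is a stack of alpha and beta rings in which 3 beta subunits carry the active sites, and the 19S particle recognizes and unfolds the substrate. In cells of the immune system, and in other cells exposed to interferon gamma, the catalytic subunits Psmb5, Psmb6 and Psmb7 are replaced in newly made cores by Psmb8, Psmb9 and Psmb10. The activator PA28, built from Psme1 and Psme2, caps the core in place of, or together with, the 19S particle. The resulting immunoproteasome supplies peptides to MHC class I, and dendritic cells and lymphocytes are known to hold it without outside stimulation.

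The upstream sequences of Psmb8 and Psmb9 are shown because these inducible catalytic subunits lie close together and yet gave different ratios between the libraries, and that of Psmb5 because it is the constitutive partner of Psmb8. Each run is the 250 bases before the RefSeq start of the gene on the GRCm38.p6 assembly, written 5′ to 3′ on the strand of the gene, and capitals mark a match to TTCNNNGAA, the letters of the interferon gamma-activated sequence (the GAS motif).
Psmb8, chr17:34197945-34198194, plus strand: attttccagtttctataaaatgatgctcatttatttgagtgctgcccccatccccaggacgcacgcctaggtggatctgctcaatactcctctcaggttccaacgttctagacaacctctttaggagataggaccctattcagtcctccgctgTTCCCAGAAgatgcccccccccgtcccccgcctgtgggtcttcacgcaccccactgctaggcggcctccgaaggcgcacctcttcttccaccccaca
Psmb9, chr17:34187331-34187580, minus strand: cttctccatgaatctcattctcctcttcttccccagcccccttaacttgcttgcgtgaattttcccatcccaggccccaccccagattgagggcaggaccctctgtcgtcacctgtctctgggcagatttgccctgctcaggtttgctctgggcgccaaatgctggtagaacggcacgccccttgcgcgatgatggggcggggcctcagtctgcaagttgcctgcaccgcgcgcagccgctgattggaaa
Psmb5, chr14:54617996-54618245, minus strand: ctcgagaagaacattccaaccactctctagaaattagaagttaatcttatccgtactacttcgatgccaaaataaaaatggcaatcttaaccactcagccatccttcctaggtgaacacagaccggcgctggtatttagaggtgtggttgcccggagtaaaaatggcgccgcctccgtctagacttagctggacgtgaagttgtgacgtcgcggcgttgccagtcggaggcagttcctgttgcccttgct

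The match in the Psmb8 sequence lies 97 to 89 bases before the RefSeq start. Searched on both strands over windows from 250 bases before to 50 bases after the start, the GAS letters occurred in 8.30% of 32851 windows of all genes. They occurred in 2 of 38 member genes present in the promoter table, Psmb8 and Psmd2. These 38 genes had 41 windows, and members are counted here and below by gene, not by window as for all genes. The core of the interferon-stimulated response element, searched as GAAA and GAAA with any 2 bases between, occurred in 3.44% of all windows and in 4 member genes, namely Psmb3, Psmd4, Psmd9 and Psme1. Neither string was found in the windows of Psmb9 and Psmb5. A match of letters is a description of the sequence and not evidence of binding. In the genome annotation (mm10, GENCODE M21) Psmb8 spans 34197721 to 34201454 on the plus strand of chromosome 17, and Psmb9 spans 34181987 to 34187764 on its minus strand. The runs shown for Psmb8 and Psmb9 lie within these spans, because this annotation places each start farther upstream than RefSeq does. The RefSeq start of Psmb9 lies 226 bases from that of Tap1, a peptide transporter gene read in the opposite direction. The annotated span of Psmb9 reaches past the start of Tap1, and the sources used here do not say whether the counting used strand. Psme1 and Psme2 lie near each other on chromosome 14, at 55578123 to 55581529 on the plus strand and 55587441 to 55591113 on the minus strand, and Psmb10 lies on the minus strand of chromosome 8, at 105935735 to 105938444.

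After barcodes with at least 200 genes and under 10% mitochondrial UMIs were kept, 5225 cells with 4116399 UMIs remained for shRFP and 5576 cells with 4281577 UMIs for shSdc1. The median cell held 662 and 601 UMIs, and 17 barcodes occurred in both libraries. The members took 0.769% of all UMIs in shRFP and 0.812% in shSdc1. Transcripts of cells outside the sort were present at low levels. Of 6 melanoma markers 5 were seen in each library, with Gpr143 at 0 in both, and these gave 37 and 200 UMIs, or 8.99 counts per 1000000 UMIs (CPM) in shRFP and 46.7 in shSdc1. Of 5 red cell markers 0 and 1 were seen, and 5 fibroblast markers gave 4 and 6 UMIs and 5 endothelial markers 133 and 132, mostly Pecam1. Of 12 genes known to respond to tissue dissociation all were lower in shSdc1, with a summed level of 10758 CPM in shRFP and 5890 in shSdc1. The 10 T-cell markers summed to 1147 and 2094 CPM. The part of these differences in the results on all cells was not tested.

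Across all cells the 5 inducible members were each higher in shSdc1, by 1.19-fold to 1.499-fold, whereas the 14 constitutive 20S subunits lay between 0.872-fold and 1.10-fold and the 17 subunits of the 19S particle between 0.813-fold and 1.27-fold. Of the 45 members, 43 had at least 50 UMIs in the libraries together and are called measured; Psma8 had 5 and 3 UMIs, and Psmb11 had 0. A ratio of at least 1.5-fold either way was used as the mark of a large difference. It was reached by 0 of the 43 measured members, beside 17.2% of all 9298 measured genes. A ratio above 1 was found in 23 of these 43 members, including the 5 inducible ones, and in 5983 of the 9298 genes. The median log2 ratio was 0.31 over the inducible members, -0.00 over the constitutive 20S subunits, -0.08 over the 19S subunits and 0.13 over all measured genes.

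**Figure D1:**
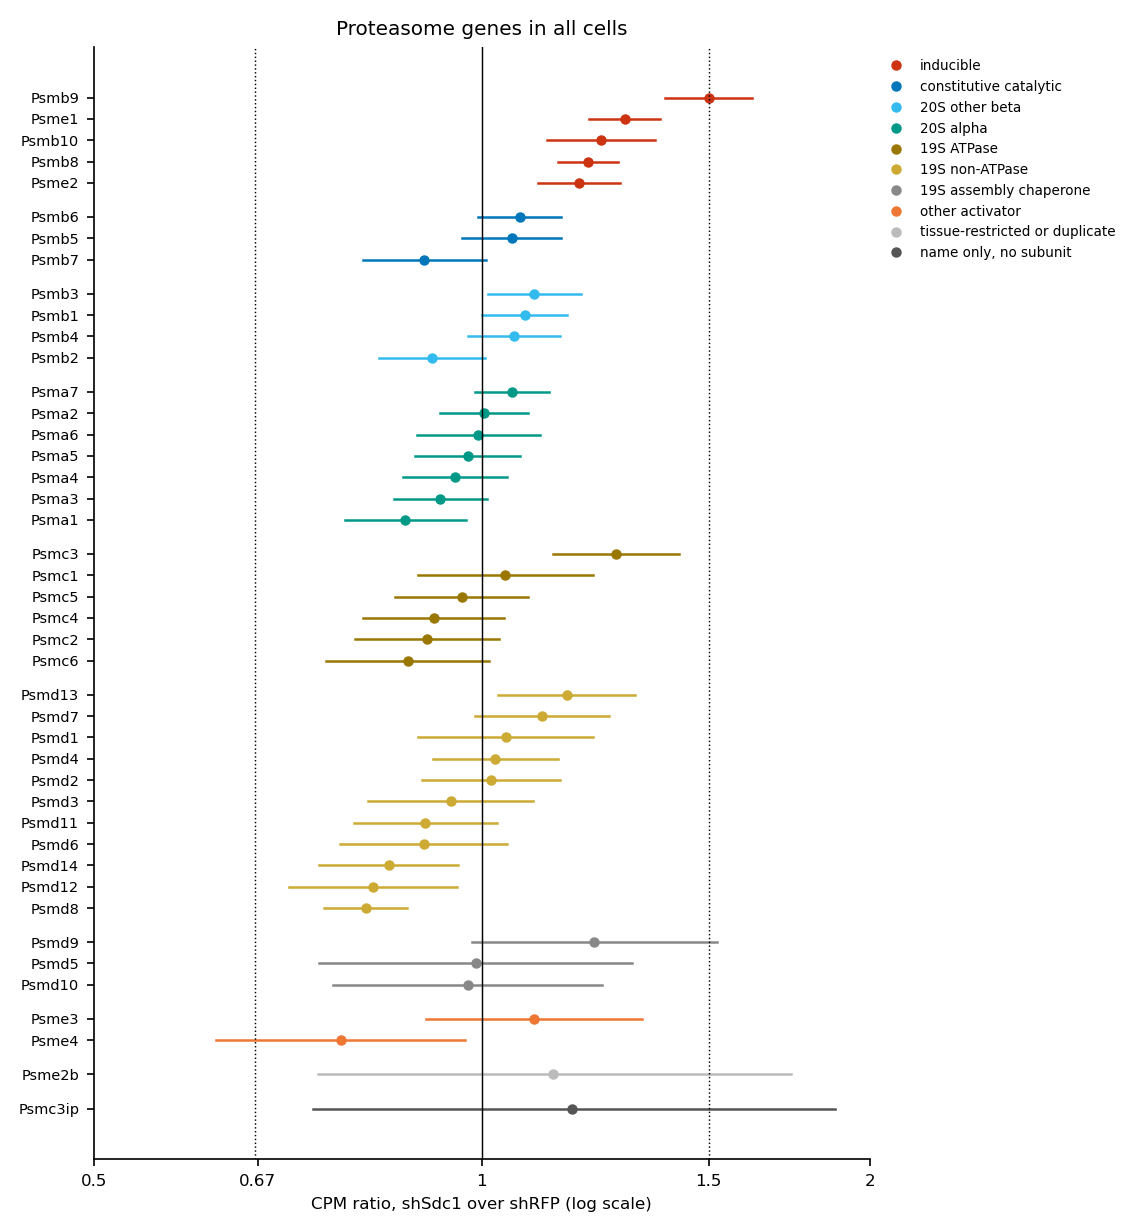
Ratio of CPM in shSdc1 over shRFP for the 43 measured members in all cells, on a log axis, with points as ratios and lines as 95% counting intervals; colors give the role and dotted lines mark 1.5-fold either way. The 5 inducible members lie above 1 with their whole intervals, while the constitutive 20S subunits gather around 1.

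Psmb9, the inducible subunit that takes the place of Psmb6, had the largest ratio of any member. It stood at 257 CPM (1056 UMIs) in shRFP and 385 CPM (1647 UMIs) in shSdc1, a ratio of 1.499 with an interval of 1.39 to 1.62, just short of 1.5-fold. Psmb8, which takes the place of Psmb5, stood at 598 and 723 CPM, a ratio of 1.21 (1.15 to 1.28). Psmb10, which replaces Psmb7, stood at 180 and 223 CPM, a ratio of 1.24 (1.12 to 1.36). The intervals of all 3 catalytic genes lay above 1, and that of Psmb9 did not overlap those of the other two. Of the PA28 genes, Psme1 stood at 411 CPM in shRFP and 531 in shSdc1 (ratio 1.29, 1.21 to 1.38), and Psme2 at 318 and 378 (1.19, 1.11 to 1.28). The libraries differed in their scaling: under TMM scaling all ratios are lower by 0.15 on the log2 scale. The point values of the 5 then stay above 1, with Psmb9 at 1.35 and Psme2, the lowest, at 1.07. Intervals were not computed under this scaling, so the values do not show that Psme2 stays clear of 1. The median of the constitutive 20S and 19S subunits is then -0.18.

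The constitutive catalytic subunits had ratios nearer to 1. Psmb5, the chymotrypsin-like subunit, stood at 235 CPM in shRFP and 248 in shSdc1, a ratio of 1.05 (0.966 to 1.15). Psmb6, the caspase-like subunit, stood at 331 and 354 CPM (1.07, 0.994 to 1.15), and Psmb7, the trypsin-like subunit, at 163 and 147 (0.903, 0.808 to 1.01). All 3 intervals include 1. A single cell held 17 of the 968 Psmb5 UMIs in shRFP. Among the structural beta subunits the ratio ran from 0.915 for Psmb2 to 1.10 for Psmb3, and among the alpha ring subunits from 0.872 for Psma1 to 1.06 for Psma7.

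In the 19S particle, Psmc3, one of the ATPases that unfold the substrate, stood at 133 CPM in shRFP and 169 in shSdc1, a ratio of 1.27 (1.14 to 1.42). Of the 17 subunits of the particle found by the symbol rule, it was the only one with a ratio in the range of the inducible members. Psmc6 was the lowest ATPase at 0.876. Of the non-ATPase subunits, Psmd13 was the highest at 1.16 (1.03 to 1.32). The lowest was Psmd8, at 372 CPM in shRFP and 302 in shSdc1, a ratio of 0.813 (0.754 to 0.876). Psmd12 had a ratio of 0.823 and Psmd14, the deubiquitinase of the particle, 0.847, both with intervals below 1. The assembly chaperones ran from 0.975 for Psmd10 to 1.22 for Psmd9. Of the other activators, Psme3 (PA28 gamma, a nuclear activator) had a ratio of 1.10 and Psme4 (PA200) 0.778 (0.622 to 0.971). Psme2b had 44 and 52 UMIs and Psmc3ip 36 and 44, and both intervals span 1.

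The contrast within a library does not depend on scaling between libraries. In shRFP the 5 inducible members gave 7260 UMIs against 14585 from the 14 constitutive 20S subunits, or 0.498 inducible UMIs per constitutive UMI. In shSdc1 they gave 9588 against 15309, or 0.626. The quotient of these, referred to below as the difference in inducible over constitutive, was 1.26 (1.21 to 1.31). The 561 and 326 barcodes left out by the filter had values of 0.654 and 0.849, on 197 and 152 inducible UMIs. The part of such RNA in the kept cells was not tested. All cells include different mixtures of cell types in the libraries, and when every cluster of cells was given the same weight in both libraries the quotient was 1.15. The ratio of Psmb9 was then 1.197, that of Psmb8 1.04 and that of Psme2 1.07. The part of the mixture in the differences of single genes over all cells was not tested beyond this, and values by cell class follow.

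Cells were clustered without the members, and clusters were named from marker genes where the markers allowed it. Of 17 clusters 16 were named, in 9 classes, and the remaining cluster, 8, was led by Retnla, Ear2 and Lyz1. Monocyte/macrophage-like cells were the largest class, with 2768 cells in shRFP and 2402 in shSdc1, followed by T-like cells with 1069 and 1743. Only these classes had at least 200 cells in each library and were compared between the libraries over all genes. Median UMIs per cell ran from 374 in the B and plasma-like cells of shRFP to 1305 in the conventional DC 1-like cells of shSdc1.

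Relative to the constitutive core, the inducible members were highest in migratory DC-like and conventional DC 1-like cells and lowest in monocyte/macrophage-like cells. In shRFP the inducible over constitutive value was 1.67 in migratory DC-like cells, 1.06 in conventional DC 1-like cells, 0.704 in NK-like cells, 0.696 in T-like cells, 0.589 in conventional DC 2-like cells, 0.530 in B and plasma-like cells and 0.363 in monocyte/macrophage-like cells. In shSdc1 the same classes gave 1.84, 1.03, 0.729, 0.747, 0.617, 0.615 and 0.443. Among these 7 classes, migratory DC-like cells were highest, conventional DC 1-like cells next and monocyte/macrophage-like cells lowest in each library, with intervals that did not overlap those of any other class. The 4 classes between them could not be ordered, since their intervals overlapped in every pair except T-like against conventional DC 2-like cells in shSdc1. The plasmacytoid DC-like cells (27 and 34 cells; 0.830 and 1.04) and neutrophil-like cells (33 and 25 cells; 0.727 and 0.957) were too few to be placed.

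**Figure D2:**
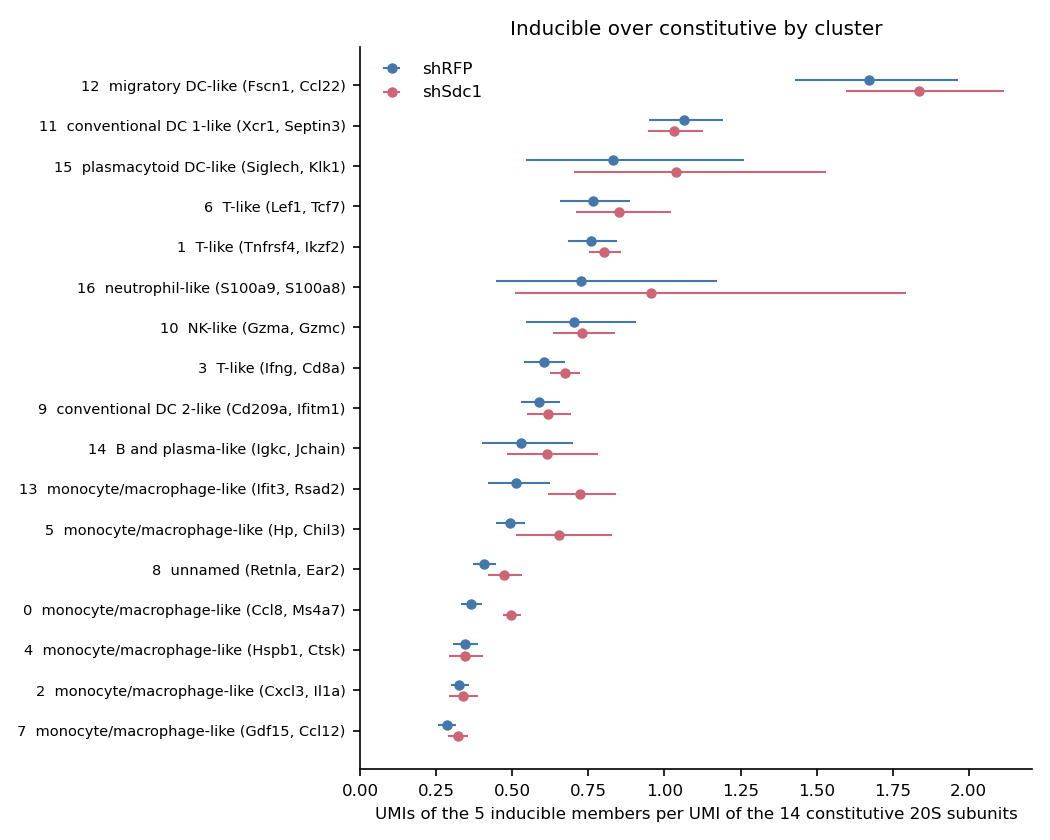
UMIs of the 5 inducible members per UMI of the 14 constitutive 20S subunits in each of the 17 clusters, shRFP in blue and shSdc1 in red, with 95% counting intervals; clusters are ordered by the shRFP value and labelled with their class and leading genes. Migratory DC-like cells stand at 1.67 and 1.84, and the lowest monocyte/macrophage-like cluster, 7, at 0.284 and 0.320.

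The inducible sums had the same highest and lowest classes among the larger ones named here. The summed inducible level was 4411 CPM in shRFP and 5214 in shSdc1 in migratory DC-like cells, 4116 and 4773 in conventional DC 1-like cells, 2558 and 2833 in T-like cells, and 1261 and 1521 in monocyte/macrophage-like cells. The constitutive 20S sum stood at 2636 and 2840 CPM in migratory DC-like cells, below the 3473 and 3430 CPM of monocyte/macrophage-like cells. T-like cells had 3674 and 3794 CPM of constitutive 20S transcripts, 1.06 times (1.01 to 1.11) the monocyte/macrophage-like level in shRFP and 1.11 times (1.06 to 1.15) in shSdc1. Conventional DC 1-like cells had 3869 and 4625 CPM. Set against monocyte/macrophage-like cells, T-like cells had 1.92 times (1.77 to 2.08) the inducible over constitutive value in shRFP and 1.68 times (1.58 to 1.80) in shSdc1. With each cell thinned to 300 UMIs these became 1.89 and 1.82.

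**Figure D3:**
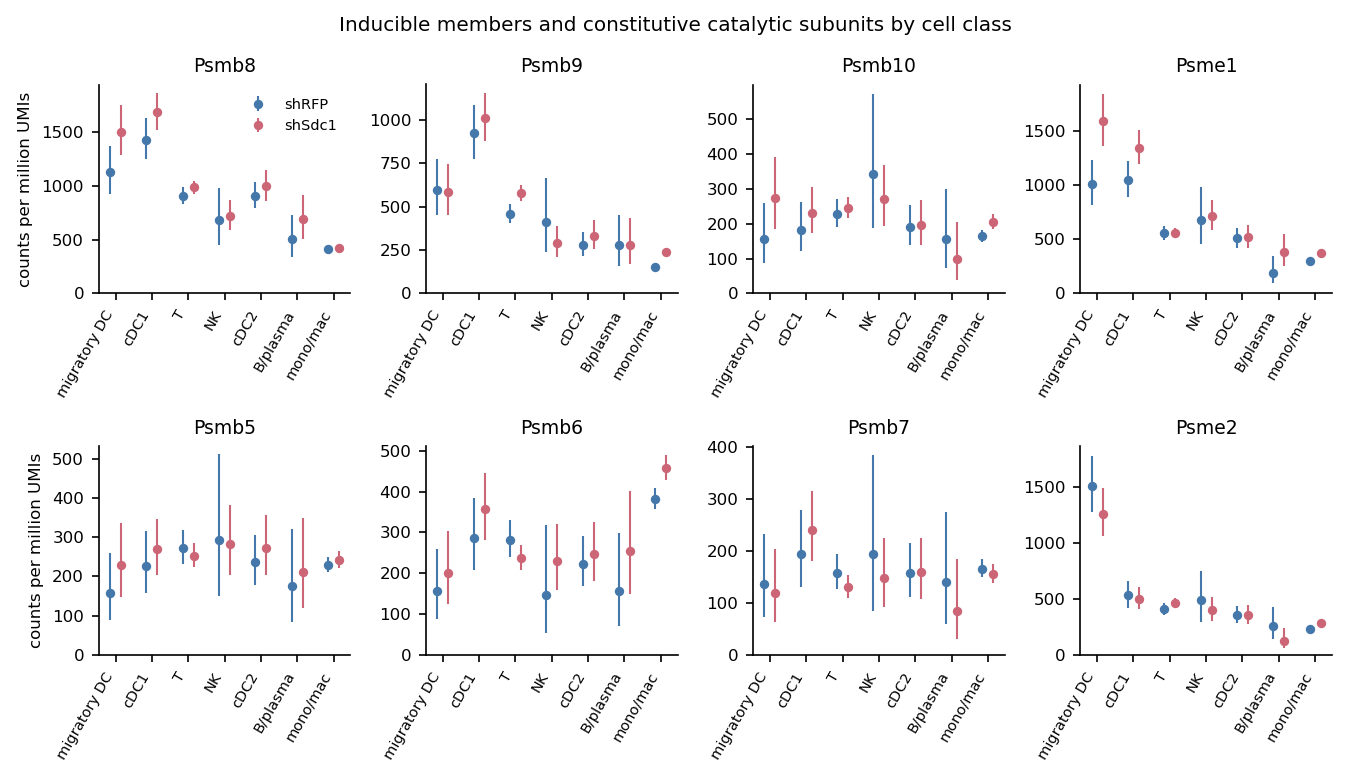
CPM of the 5 inducible members and the 3 constitutive catalytic subunits in the 7 larger classes, shRFP in blue and shSdc1 in red, with 95% counting intervals on linear axes from 0. Psmb8, Psmb9 and Psme1 are high in migratory DC-like and conventional DC 1-like cells, Psme2 stands out in migratory DC-like cells, and Psmb6 is highest in monocyte/macrophage-like cells.

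Migratory DC-like cells, marked by Ccr7 and Fscn1 and known as antigen-carrying cells that have matured, had 4 of the 5 inducible members at least 1.5-fold above monocyte/macrophage-like cells in both libraries. Psmb8 was 2.75-fold and 3.57-fold higher in shRFP and shSdc1, Psmb9 3.96-fold and 2.47-fold, Psme1 3.35-fold and 4.24-fold, and Psme2 6.51-fold and 4.46-fold. These 4 were the only higher ones among 40 members measured, beside 12.8% of 4996 genes, so the count over all members is near the background. Lower in both libraries were 7 members beside 32.3% of genes, namely Psmb6, Psmc1, Psmc2, Psmc3, Psmc5, Psmd14 and Psme3. They include 5 of the 17 measured subunits of the 19S particle, a count near that share of all genes. Psmb6 was at 0.413-fold and 0.438-fold, on 15 and 22 UMIs in the migratory DC-like cells.

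Conventional DC 1-like cells, marked by Xcr1 and Clec9a and known for presenting antigen on MHC class I to CD8 T cells, also had 4 of the 5 inducible members higher. With Psma4, an alpha ring subunit, 5 of 40 members were higher, beside 10.8% of 5104 genes, again near the background. Psmb9 was at 923 CPM in shRFP and 1010 in shSdc1, the highest of the 7 larger classes, and 6.11-fold and 4.27-fold above monocyte/macrophage-like cells. Psmb8 was at 1430 and 1687 CPM. Psma4 was at 1.85-fold and 1.63-fold, and 4 members were lower (Psmc1, Psmd1, Psmd8 and Psmd9) against 23.1% of genes.

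T-like cells had 3 inducible members higher than monocyte/macrophage-like cells in both libraries, Psmb8 (2.20-fold and 2.34-fold), Psmb9 (3.03-fold and 2.44-fold) and Psme2 (1.76-fold and 1.64-fold). The share of all 6120 genes higher in that comparison was 26.4%, so that 3 of 41 members is below the background. Psmd8 was the only lower member, against 20% of genes.

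Psmb10 was not past 1.5-fold in both libraries in any of these comparisons. Conventional DC 1-like cells had 182 CPM in shRFP and 232 in shSdc1, and monocyte/macrophage-like cells 164 and 205, with overlapping intervals. Of the PA28 genes, Psme2 differed between these DC classes. It was at 1512 and 1260 CPM in migratory DC-like cells and at 533 and 500 in conventional DC 1-like cells. Psme1 was at 1008 and 1589 CPM in the former and 1047 and 1344 in the latter, with overlapping intervals in each library.

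Each inducible catalytic subunit takes the place of 1 constitutive subunit, so its share of the UMIs of the pair describes the transcripts counted for that position, although capture may differ between genes. In all cells Psmb8 made up 71.8% of the pair with Psmb5 in shRFP (70.2% to 73.3%, exact Clopper-Pearson interval) and 74.5% in shSdc1 (73.1% to 75.8%). Psmb9 made up 43.7% and 52.1% of the pair with Psmb6, and Psmb10 52.6% and 60.3% of the pair with Psmb7. All 3 shares were higher in shSdc1, by 2.68 percentage points for Psmb8 (0.678 to 4.69, Newcombe interval), 8.40 for Psmb9 (5.75 to 11.02) and 7.73 for Psmb10 (4.18 to 11.3). Over the 3 pairs together the difference was 5.31 points (3.80 to 6.81), and 1.99 points with clusters weighted alike. Within monocyte/macrophage-like cells it was 1.86 points (-0.52 to 4.25), an interval that spans 0, and -0.23 with each cell thinned to 300 UMIs. Within T-like cells it was 5.39 points (2.40 to 8.44).

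**Figure D4:**
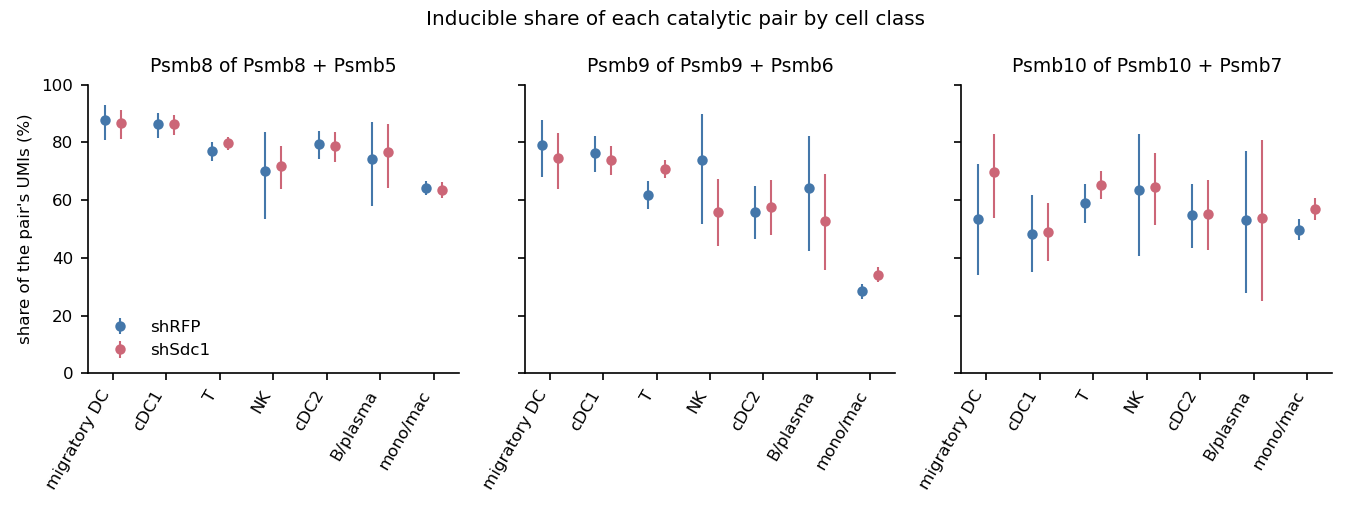
Share of the UMIs of each catalytic pair that comes from the inducible subunit, in percent, for the 7 larger classes, shRFP in blue and shSdc1 in red, with exact 95% intervals. The Psmb9 share runs from 28.4% in monocyte/macrophage-like cells of shRFP to 79.2% in migratory DC-like cells of the same library, while the Psmb10 share shows overlapping intervals between most classes.

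The share of the Psmb9 pair spanned the widest range over the 7 larger classes in each library. Psmb9 made up 79.2% of its pair in migratory DC-like cells of shRFP and 74.4% in shSdc1, 76.3% and 73.9% in conventional DC 1-like cells, 61.9% and 70.9% in T-like cells, and 28.4% and 34.1% in monocyte/macrophage-like cells. For the Psmb8 pair the same classes gave 87.8% and 86.8%, 86.3% and 86.3%, 76.96% and 79.7%, and 64.2% and 63.5%. In T-like cells the Psmb9 share was 9.001 points higher in shSdc1 (3.51 to 14.6), and in monocyte/macrophage-like cells 5.68 points higher (2.08 to 9.25). The DC classes gave differences whose intervals span 0, at -2.45 points (-10.1 to 5.65) in conventional DC 1-like cells and -4.75 points (-17.5 to 8.66) in migratory DC-like cells.

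Within monocyte/macrophage-like cells Psmb9 was the only member past 1.5-fold between the libraries, against 17.6% of 7171 genes. It stood at 151 CPM in shRFP and 237 in shSdc1, a ratio of 1.57 (1.36 to 1.81). Psmb10 had a ratio of 1.25 (1.08 to 1.45), Psme1 1.24 (1.12 to 1.38) and Psme2 1.22 (1.08 to 1.37). Psmb8 did not share the difference, at 412 and 422 CPM, a ratio of 1.02 (0.9304 to 1.12) that is 0.962 under TMM scaling. Psmb6, the constitutive partner of Psmb9, was itself higher, at 382 and 459 CPM (1.202, 1.09 to 1.32), and Psmd8 was lower (0.836, 0.758 to 0.922). Inducible over constitutive differed by 1.22 (1.15 to 1.298) in this class, and by 1.22 with its clusters weighted alike, where Psmb9 stood at 1.39. With the 3 constitutive catalytic subunits alone as the constitutive side it was 1.09 (1.005 to 1.19). In the same cells the melanoma markers summed to 12.8 and 55.7 CPM and the dissociation genes to 12154 and 6897; their part was not tested.

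The class held 6 clusters whose shares of cells differed between the libraries. Cluster 0, led by Ccl8, Ms4a7, Apoe and C1qa, which mark macrophages, accounted for 461 shRFP cells and 1182 shSdc1 cells. The cells of cluster 5, led by Hp, Chil3 and Plac8, known from monocytes, numbered 646 and 109. Cluster 2, led by the inflammatory genes Cxcl3 and Il1a, had 713 and 343. Psmb9 had a ratio above 1 in 6 of the 6 clusters, from 1.03 in cluster 7 to 1.82 in cluster 5, but the interval lay above 1 only in clusters 0 and 5. Psmb10 was above 1 in 6, Psme1 and Psme2 in 5 each, and Psmb8 in 2. The share of all genes above 1 was not counted by cluster. Over the whole class it was 4058 of 7171 measured genes.

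**Figure D5:**
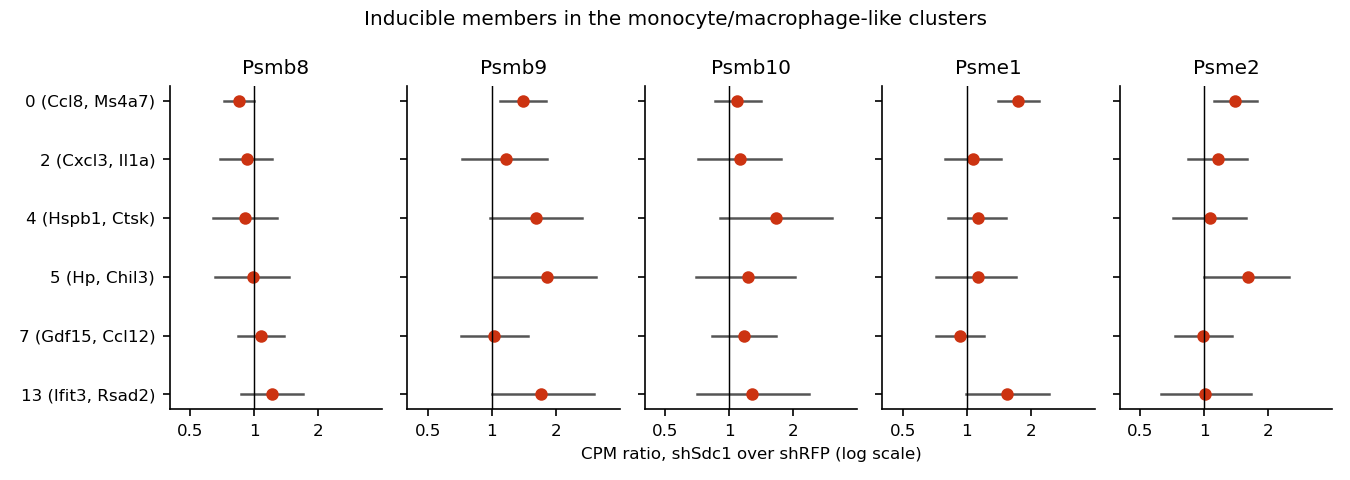
Ratio of CPM in shSdc1 over shRFP for the 5 inducible members in the 6 monocyte/macrophage-like clusters, on a log axis, with 95% counting intervals; rows give the cluster number and 2 leading genes. In cluster 0 Psme1 stands at 1.75 while Psmb8 stands at 0.846.

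In cluster 0 the inducible members differed in direction. Psme1 was at 240 CPM in shRFP and 420 in shSdc1, a ratio of 1.75 (1.41 to 2.19). Psmb9 was at 206 and 288 (1.40, 1.10 to 1.79), and Psme2 at 227 and 316 (1.39, 1.11 to 1.77). Psmb8 was lower, at 549 and 464 CPM (0.846, 0.721 to 0.995), while its share of the pair with Psmb5 was 65.9% and 65.8%. Inducible over constitutive in the cluster was 0.364 in shRFP and 0.497 in shSdc1, a quotient of 1.37 (1.22 to 1.53), and the constitutive 20S sum was 3950 and 3466 CPM. Cluster 13, led by the type I interferon genes Ifit3 and Rsad2, had 0.513 and 0.722 (1.41, 1.10 to 1.81), and the monocyte cluster 5 had 0.492 and 0.652 (1.32, 1.02 to 1.71). Clusters 2 and 4, the latter led by Hspb1 and Ctsk, had quotients of 1.03 (0.868 to 1.22) and 0.9997 (0.817 to 1.22). Cluster 7, led by Gdf15 and Ccl12, had the lowest value of the 17 clusters in each library, at 0.284 and 0.320, with intervals that overlap those of clusters 2 and 4 in each library.

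In T-like cells 0 of 41 measured members reached 1.5-fold, against 12.0% of 4935 genes. Psmb9 was again the highest inducible member, at 458 CPM in shRFP and 578 in shSdc1, a ratio of 1.26 (1.09 to 1.46). It was 1.17 with the clusters of the class weighted alike. After thinning to 300 UMIs it was 1.21 (0.963 to 1.53), an interval that includes 1. The class differed in make-up, and its cluster 6, led by Lef1 and Tcf7, held 36.4% of its cells in shRFP and 16.0% in shSdc1. Psmb8 was at 908 and 988 (1.09, 0.979 to 1.21), and Psme1 at 556 and 557 (1.002, 0.873 to 1.15). Inducible over constitutive was 0.696 and 0.747, a quotient of 1.07 (0.987 to 1.17), which includes 1. The 3 constitutive catalytic subunits had ratios below 1, from 0.822 for Psmb7 to 0.929 for Psmb5, each with an interval that includes 1. Taking those 3 alone as the constitutive side gave 1.27 (1.10 to 1.47). Psma6 had the highest ratio of the constitutive subunits in these cells, at 107 and 154 CPM (1.45, 1.07 to 1.98), and Psmd6 the lowest, at 95.9 and 66.4 CPM (0.692, 0.479 to 1.005). The difference between the classes in these quotients was not tested.

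Values of inducible over constitutive in the named sub-clusters of T-like cells follow, shRFP before shSdc1. The regulatory-like sub-cluster led by Areg and Itgb8 had 0.938 (0.768 to 1.14) and 1.01 (0.882 to 1.16). The other regulatory-like sub-cluster, led by Gpr55 and Foxp3, had 0.784 (0.645 to 0.953) and 0.870 (0.770 to 0.983). The naive-like sub-cluster led by Tcf7 and Dapl1 had 0.747 (0.634 to 0.879) and 0.624 (0.501 to 0.776), a quotient of 0.836 (0.634 to 1.10). The cycling-like sub-cluster had 5056 and 4815 CPM of constitutive 20S transcripts and 3047 and 2659 CPM of 19S transcripts, and its inducible over constitutive value was 0.518 and 0.655. A small CD8-like sub-cluster led by Ifit3 and Isg15, with 15 and 55 cells, had values of 1.56 and 1.19. There Psmb9 rested on 13 and 14 UMIs, at 2022 CPM in shRFP and 597 in shSdc1 (0.295, 0.129 to 0.682).

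Migratory DC-like cells (138 in shRFP and 150 in shSdc1) and conventional DC 1-like cells (135 and 159) were not compared between the libraries over all genes. The share of all genes with a ratio above 1 was not counted in these classes, and no TMM-scaled ratio was computed. The values of single genes below therefore have no background to be read against. In migratory DC-like cells the intervals of Psme1 and Psmb8 lay above 1 between the libraries. Psme1 was at 1008 CPM in shRFP and 1589 in shSdc1, a ratio of 1.58 (1.22 to 2.04), and Psmb8 at 1134 and 1507 (1.33, 1.04 to 1.71). Psmb9 was at 599 and 584, and Psme2 at 1512 and 1260 (0.833, 0.655 to 1.06). Conventional DC 1-like cells had Psme1 at 1047 and 1344 CPM (1.28, 1.06 to 1.57). The quotient of inducible over constitutive was 1.10 (0.886 to 1.36) and 0.970 (0.840 to 1.12) in these classes.

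Outside the symbol rule, of 12 proteasome assembly factors, associated enzymes and regulators, 0 were higher by 1.5-fold in all cells, beside 12.5% of all genes, and 1 was lower, beside 4.72%, and the median of the log2 ratios was 0.08. Pomp, the maturation factor of the core, stood at 350 and 383 CPM (1.09, 1.02 to 1.18). Nfe2l1, a transcription factor that raises proteasome genes when the proteasome is impaired, stood at 43.7 and 50.9 (1.16, 0.951 to 1.43), and Nfe2l2, the regulator of the oxidative stress response, at 199 and 115 (0.579, 0.517 to 0.649).

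Of 11 genes of MHC class I presentation 2 were higher by 1.5-fold in all cells, a count near the 12.5% of all genes. These were Tap1, at 141 and 224 CPM (1.59, 1.43 to 1.76), and Nlrc5, the transactivator of this pathway, at 25.0 and 50.2 (2.01, 1.58 to 2.56). The light chain B2m was at 2220 and 3064 CPM (1.38) and the heavy chain H2-K1 at 1744 and 2489 (1.43). The general chaperones Canx (0.824) and Calr (0.949) were not higher. In monocyte/macrophage-like cells 3 of the 11 passed, beside 10.3% of all genes, with Tap1 at 1.73 and B2m at 1.56. In T-like cells 1 of 11 did, beside 8.43%.

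Of 17 measured genes of the interferon gamma response 7 were higher by 1.5-fold in all cells, beside 12.5% of all genes, and 0 lower. The median of their log2 ratios was 0.48, against 0.13 over all genes. In monocyte/macrophage-like cells 8 of 17 were higher, beside 10.3%, with the chemokine Cxcl9 at 117 and 362 CPM (3.101, 2.69 to 3.59). Cxcl10 did not share this, at 544 and 475 CPM (0.873). In T-like cells 1 of 14 was higher, beside 8.43%, and 1 lower, beside 3.55%. The 11 measured genes of the type I interferon response had 0 higher in all cells and 2 in monocyte/macrophage-like cells, beside the same 12.5% and 10.3%. In T-like cells 2 of 4 measured genes were higher, Isg15 at 1.92 (1.28 to 2.95) and Ifi27l2a at 1.58 (1.43 to 1.75). Ifng itself was at 38.9 and 61.2 CPM over all cells (1.57, 1.29 to 1.93) but at 238 and 204 within T-like cells (0.856, 0.687 to 1.07). Of 14 proliferation genes, such as Mki67 and Top2a, 7 were higher in all cells, beside 12.5%, with a median log2 ratio of 0.62. In monocyte/macrophage-like cells 4 of the 14 were higher, beside 10.3%, and in T-like cells 3, beside 8.43%. These lists were chosen with earlier results of these data known.

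Across the 15 clusters with at least 50 cells in each library, the gene whose level was most like the summed inducible level was Tap1, of 2757 genes ranked by the lower of the Pearson r values in the libraries (0.867 in shRFP and 0.827 in shSdc1, on log2 of CPM plus 10). The next were Apobec3, Cnn2, Polr2e and H2-T23. Each gene was compared with the same inducible sum in clusters of the same libraries, and clusters differ in depth, so these values are descriptions. The constitutive 20S sum gave r of 0.11 and 0.25, and the 19S sum -0.32 and -0.39. Of the other lists, Ifng with its receptor and kinase genes gave the highest r, 0.71 and 0.53. MHC class I presentation gave 0.58 and 0.23, and the interferon gamma response 0.39 and 0.49. The proliferation list gave 0.39 and 0.38, and the proteasome partners outside the symbol rule -0.10 and -0.02. The type I interferon list gave -0.31 and -0.07, and the dissociation genes the lowest r, -0.39 and -0.50. Cluster 13 had a summed type I interferon level of 15237 and 13712 CPM, with an inducible sum of 1832 and 2393 CPM, below the 3 T-like clusters in shRFP and below 2 of them in shSdc1.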

How the data were processed

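The deposited files hold raw UMI counts per gene and barcode for each library (unit and layout per the file headers), which the file headers credit to Cell Ranger 6.1.1; the build was mm10 per the submitters' processing notes, and the annotation and strand setting are not given in the sources used here. Barcodes with at least 200 genes and under 10% mitochondrial UMIs were kept. For cell classes, the highest Scrublet doublet scores were removed (242 and 263 cells, at 0.8% per 1000 barcodes), since the automatic threshold marked 1 and 0 cells. Cells were then clustered without the members (scanpy 1.11.5, 2000 variable genes, 30 components, 15 neighbours, leidenalg 0.10.2 at resolution 1). A cluster was named from at least 3 markers at 2-fold and a mean log2 fold of at least 0.5, a rule set after the data were seen. Counts were summed per library and group, and CPM carries exact Poisson intervals. Ratios carry exact conditional intervals, all at 95% and for counting error only. No p-value was computed. The members, lists and comparisons were chosen with earlier results of these data known. The genes named are the inducible and constitutive catalytic members, the highest and lowest ratio of each role, members past 1.5-fold and the 5 genes most alike; others were picked after their values were seen. Promoter sequences come from RefSeq (GRCm38.p6). The calculations were tested on simulated data. Alternatives covered filters, clustering resolution, scaling (edgeR 4.0.16 TMM, median of ratios), thinning and cluster weights.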

Additional observations from a re-analysis of the deposited data

Results flagged for a closer look

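A search of the inducible and constitutive catalytic members over all 17 clusters looked for genes with intervals on opposite sides of 1. It returned Psmb8 alone, so its intervals leave out 1 by the way it was picked. In cluster 0, macrophages led by Ccl8 and C1qa, the ratio of shSdc1 over shRFP was 0.846 (0.721 to 0.995), from 240 and 431 UMIs. In cluster 12, the migratory DC-like cells, it was 1.33 (1.04 to 1.71), from 108 and 165 UMIs. The share of all genes above or below 1 was not counted in either cluster. The difference between the clusters was not tested, and with 1 library per group it has no replicate.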

How the results depend on the processing

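No paired analysis was possible because each group is 1 library. All alternatives were listed with earlier results known. Of the alternative values of summary results, 99 stayed within the range set for calling them alike and 29 did not; for single genes these were 141 and 19. Differences whose intervals span no difference changed direction under some alternatives: the catalytic pair share in monocyte/macrophage-like cells was -0.23 points after thinning in place of 1.86, Psmb8 in that class was as low as 0.94 in place of 1.02, and in T-like cells Psme2 was 0.93 after thinning in place of 1.14 and Psme1 as low as 0.96 in place of 1.002. The other results kept their direction under the alternatives run, though some of their intervals then included 1. The difference in catalytic pair shares was 6.86 points in all cells and 5.46 in monocyte/macrophage-like cells with at least 500 genes per cell, and 1.99 in all cells with clusters weighted alike. Inducible over constitutive between the libraries was 1.15 in all cells with clusters weighted alike. With the 3 constitutive catalytic subunits as the constitutive side it was 1.27 in T-like and 1.09 in monocyte/macrophage-like cells. T-like against monocyte/macrophage-like cells gave 1.77 in shRFP and 1.55 in shSdc1 with at least 500 genes, and 2.21 and 2.58 with the catalytic constitutive side. In shSdc1 it gave 1.90 with the 3 inducible catalytic subunits alone and 1.82 after thinning. The median log2 ratio of constitutive subunits was -0.18 under TMM and -0.17 under median-of-ratios scaling. Members past 1.5-fold in all cells numbered 1 in place of 0 with at least 500 genes, after thinning, with doublets removed, under 5% mitochondrial UMIs, and without the cell with most inducible UMIs. In T-like cells they numbered 2 with at least 500 genes, 1 with clusters weighted alike, 4 after thinning and 1 under median-of-ratios scaling, in place of 0. In monocyte/macrophage-like cells, in place of 1, they numbered 0 at resolution 1.5, under TMM, under median-of-ratios scaling and with doublets kept, 2 at a minimum of 20 UMIs and 3 with at least 500 genes. The cause of these shifts was not tested. Thinning left out 403 and 547 cells. The depth, a median of 662 and 601 UMIs per cell, leaves many members with few UMIs in the smaller classes.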
